A study of Mus musculus with 6 samples.

Results

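The genes described here build and run motile cilia. They were chosen by name alone, as every gene whose symbol begins with Dnah, Dnai, Dnaic, Dnali, Tekt, Rsph, Ift, Cfap, Spag, Spef or Ropn1, which are the names given to dynein chains, tektins, radial spoke proteins, intraflagellar transport (IFT) proteins and other proteins of cilia and flagella. On the arrays 128 probe sets, here called members, read 79 such genes, out of 45037 probe sets that read 18193 genes. Several probe sets read the same gene for 33 of the 79. A further 3 probe sets whose label named more than 1 gene were not counted. Because the choice went by name, it also took in proteins that act elsewhere, such as Spag5 of the mitotic spindle and Spag9, a scaffold of JNK signalling.

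A motile cilium bends when dynein arms, fixed along its outer microtubule doublets, walk on the neighbouring doublet. Radial spokes and the central pair of microtubules shape the beat, tektins and many Cfap proteins stiffen the doublets or dock other parts on them, and IFT trains carry all of these to the growing tip. In the lung this machinery belongs to the multiciliated cells of the airway lining, which sweep mucus upward, and much of it is shared with the sperm tail.

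Whole lungs were taken from adult BALB/c mice of 3 genotypes. WT mice were IL4R +/+ with no transgene. IL4R KO mice were IL4R -/- with no transgene, and so lacked the receptor chain through which IL-13 signals. IL4R KO + SMP8-IL4R mice, called transgenic here, were IL4R -/- and SMP8-IL4R +/-, with the receptor driven by SMP8, described by the study as a promoter of smooth muscle cells. Every group received 2 to 3 µg of IL-13 into the trachea daily for 7 days, and lungs were collected 24 hours after the last dose. There was no untreated group. Each group had 2 arrays, each hybridised with RNA pooled from 4 mice. The study's question was what IL-13 does through its receptor on smooth muscle. The sources used here do not say which cells of these lungs made the transgene's receptor. The 3 comparisons share arrays, so they are not independent of each other.

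Values are log2 expression after RMA, in which 1 unit is a doubling. The 6 array medians lay between 7.08 and 7.11, and the quartiles of all values were 5.3, 7.1 and 8.98. Il4ra was read by 3 probe sets and passed in no comparison. Probe set 1421034_a_at read 9.23 and 9.29 in the WT pools, 8.92 and 8.93 in the IL4R KO pools and 8.94 and 8.80 in the transgenic pools, and 1423996_a_at read 9.64 and 9.81, 9.35 and 9.55, and 9.98 and 9.84. Where these lie relative to the deletion is not given in the sources used here, and the labels were not checked by them. Markers of mucous cells set WT apart (mean array level 10.52 in both pools, against 7.28 to 7.54 in the other groups). Hepatocyte markers averaged 10.12 in 1 IL4R KO array (pool 1) and 9.47 in 1 WT array (pool 2), against 5.26 to 5.62 on the other 4. Y-linked genes with Xist averaged 5.47 in IL4R KO pool 2, against 6.4 to 7.18. Their median absolute gap between pools was 3.35 in IL4R KO, against 0.14 in WT and 0.39 in transgenic lungs. The IL4R KO pools thus differed in genes that mark sex, and what this adds to the comparisons with IL4R KO was not tested. Counts, medians and passing genes are also given without both liver-marked arrays.

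Of all these cilia genes, Dnah8 alone passed the test between genotypes, and the rest lay within narrow bounds. In WT against IL4R KO, 1 of 128 members passed (limma, Benjamini-Hochberg adjusted p under 0.05 over all 45037 probe sets), against 1.58% of all probe sets. In transgenic against IL4R KO, 0 members passed in the limma fit, against 0.0155% of all probe sets. In transgenic against WT, 1 member passed, against 1.04%. The passing member was the same Dnah8 probe set both times. All other members lay between -0.33 and 0.35 in WT minus IL4R KO, between -0.34 and 0.34 in transgenic minus IL4R KO, and between -0.40 and 0.23 in transgenic minus WT. In whole lung, fewer ciliated cells and less RNA per ciliated cell cannot be told apart.

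Below the threshold the members leaned low in the transgenic lungs, as did some lists of other genes described further below. The median difference of transgenic minus WT was -0.11 over the 128 members and -0.0037 over all probe sets, and 100 members lay below 0. Transgenic minus IL4R KO had a median of -0.085 (-0.0077 over all), with 92 members below 0. For WT minus IL4R KO the median was 0.019 (0.00059 over all), with 56 below 0. The members whose mean lay above the median of all values, 74 probe sets of 61 genes, had medians of -0.13, -0.12 and 0.026 in the same order, against 0.036, 0.0043 and -0.023 for all probe sets that bright. The SD of the member median between pools of a group was 0.07, of the size of these shifts. Without IL4R KO pool 2 the medians were 0.11 for WT minus IL4R KO and -0.015 for transgenic minus IL4R KO, and without IL4R KO pool 1 they were -0.047 and -0.17. That of transgenic minus WT lay between -0.14 and -0.077 whichever array was left out.

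Members were also counted whose 4 pools did not overlap between groups. Both transgenic pools lay below both WT pools for 66 members (51.6%) of 48 genes, against 27.2% of all probe sets, and above them for 10 (7.81%), against 27.4%. Against IL4R KO, both transgenic pools lay lower for 37 members (28.9%, background 22.1%) and higher for 7 (5.47%, background 20.0%). Both WT pools lay above both IL4R KO pools for 28 members (21.9%, background 23.7%) and below them for 16 (12.5%, background 22.1%). Without both liver-marked arrays, where WT and IL4R KO have 1 array each, 84 members (65.6%, against 38.9% of all probe sets) had both transgenic pools below the WT pool and 21 (16.4%, against 38.7%) above it. Against the remaining IL4R KO pool these were 95 lower (74.2%, against 42.4%) and 15 higher (11.7%, against 35.9%), and the WT array lay above the IL4R KO array for 54 members (42.2%, against 50.1%). At an unadjusted p under 0.05 (limma), 23 members were lower and 0 higher in transgenic than in WT, where 7.88% and 7.46% of all probe sets were. The same threshold was met by 10 lower and 0 higher members in transgenic against IL4R KO (background 5.37% and 5.97%), and by 8 higher and 4 lower members in WT against IL4R KO (background 8.17% and 7.88%).

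**Figure D1:**
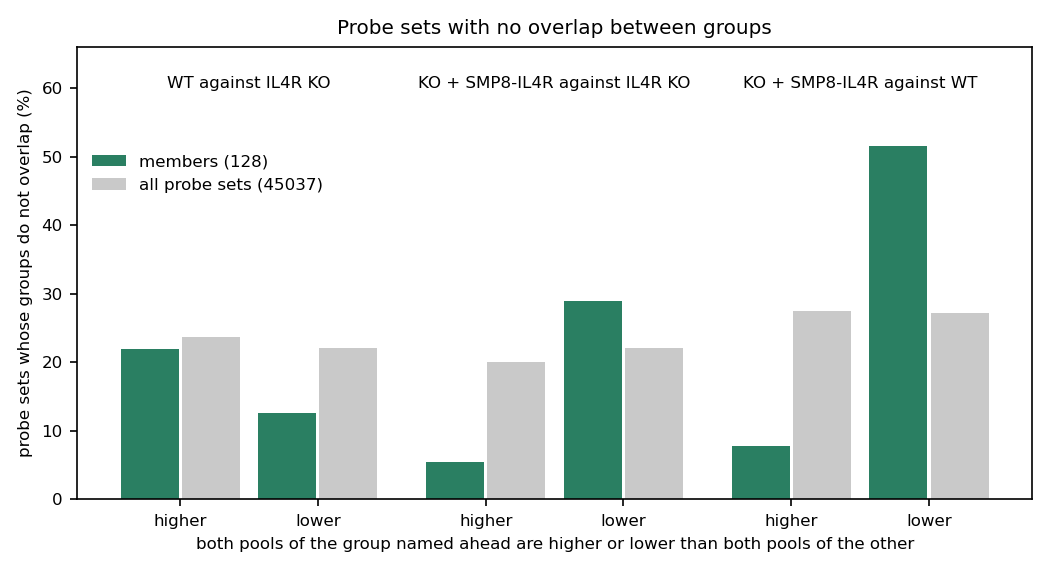
Share of probe sets, in percent, for which both pools of one group lay above (higher) or below (lower) both pools of the other, for the 128 members (green) and all 45037 probe sets (grey), in each of the 3 comparisons. The widest gap is in the transgenic against WT comparison, where 51.6% of members and 27.2% of all probe sets lay lower.

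Array by array, the members differed between the IL4R KO pools by as much as between genotypes, and less between the WT pools. Their median deviation from each probe set's own mean was 0.049 and 0.033 in the WT pools, -0.061 and 0.094 in the IL4R KO pools, and -0.11 and -0.035 in the transgenic pools. IL4R KO pool 2 stood above IL4R KO pool 1 in 100 of 128 members and was the highest of the 6 arrays for 58 members (45.3%, against 23.8% of all probe sets). Transgenic pool 1 was the lowest array for 57 members (44.5%, against 17.1%). The median absolute gap between the pools of a group was 0.21 in IL4R KO, 0.093 in WT and 0.089 in transgenic lungs. IL4R KO pool 1, the lower of that pair, also carried the hepatocyte markers, and the pools differed in Y-linked genes and Xist. The part of these in the gap was not tested. With both liver-marked arrays left out, the median of transgenic minus WT was -0.12, that of transgenic minus IL4R KO -0.17 and that of WT minus IL4R KO -0.029.

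**Figure D2:**
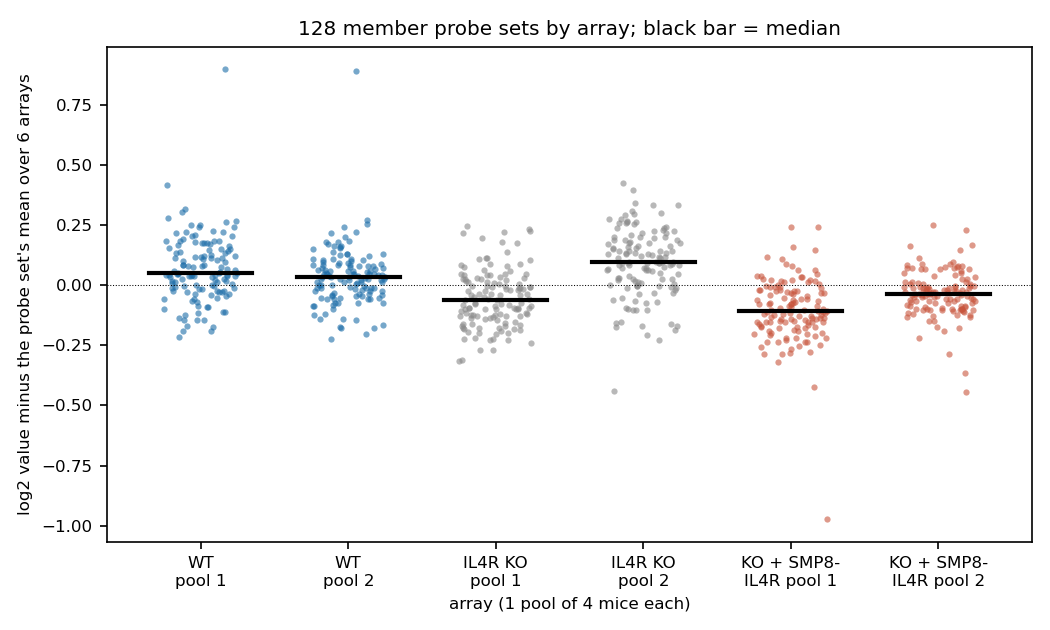
Each point is 1 of the 128 members on 1 array, plotted as its log2 value minus its mean over the 6 arrays, and black bars are medians. The IL4R KO pools differ by as much as the groups do (medians -0.061 and 0.094), transgenic pool 1 is lowest at -0.11, and the points far from the rest, near 0.9 in WT and below -0.9 in transgenic pool 1, are Dnah8.

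Among dynein heavy chains, the motor subunits that make up the arms, 14 probe sets read 10 genes. Dnah8, an outer arm heavy chain best known from the sperm tail, read 9.20 and 9.19 in the WT pools, 8.03 and 8.21 in the IL4R KO pools and 7.33 and 7.86 in the transgenic pools (probe set 1424936_a_at). The 3 groups did not overlap, with WT highest and transgenic lowest, and the SD between pools (n = 2) was 0.0055 in the WT pools, 0.12 in the IL4R KO pools and 0.37 in the transgenic pools. Dnah8 was 2.11-fold higher in WT than in IL4R KO (log2 difference 1.08, SE 0.17, limma adjusted p = 0.0356). It was 3.03-fold higher in WT than in transgenic lungs (transgenic minus WT -1.60, SE 0.17, limma adjusted p = 0.0102). Transgenic minus IL4R KO was -0.53 (SE 0.17), which did not pass (limma adjusted p = 0.36).

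These calls were lost without either WT array, while the differences stayed within 0.99 to 1.08 and -1.61 to -1.60 in the fits that lost them. Without WT pool 1 the difference from IL4R KO was 1.07 (limma adjusted p = 0.248) and without WT pool 2 it was 1.08 (0.237). Without IL4R KO pool 1 it was 0.99 (0.074), and without both liver-marked arrays 0.99 (0.138). For transgenic minus WT the values were -1.60 (adjusted p 0.119) without WT pool 1, -1.61 (0.118) without WT pool 2 and -1.61 (0.055) without both liver-marked arrays. The other Dnah8 probe set, 1425692_a_at, was dim, under the lower quartile of all values, between 4.28 and 4.68, with overlapping groups and differences of 0.13 (WT minus IL4R KO), 0.14 (transgenic minus IL4R KO) and 0.018 (transgenic minus WT). The Dnah8 promoter is shown because it is the gene that passed. The 250 bases before the gene start (RefSeq, GRCm38.p6, 5′ to 3′ on the gene's strand) hold no match to the motifs searched in this gene set, and so no capitals.
Dnah8 (chr17:30626686-30626935, plus strand): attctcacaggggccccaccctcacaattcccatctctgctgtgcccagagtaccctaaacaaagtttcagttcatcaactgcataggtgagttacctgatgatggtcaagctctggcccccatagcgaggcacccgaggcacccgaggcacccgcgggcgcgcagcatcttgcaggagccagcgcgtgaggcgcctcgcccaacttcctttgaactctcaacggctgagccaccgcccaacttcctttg

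Genes beside Dnah8 on chromosome 17 were looked up after its values were seen (gene order from RefSeq, GRCm38.p6). Counting only genes with a probe set of their own on the arrays, the order is Btbd9, Glo1, 1700097N02Rik, Dnah8, Glp1r, Umodl1 and Abcg1. Next to Dnah8 in this order is 1700097N02Rik, a transcript of unknown function. With probe set 1436419_a_at it read 6.10 and 6.01 in the WT pools, 4.25 and 4.75 in the IL4R KO pools and 3.97 and 4.46 in the transgenic pools. Both WT pools were above all 4 others, which overlapped each other. It passed in WT minus IL4R KO (1.56, SE 0.21, limma adjusted p = 0.021) and in transgenic minus WT (-1.84, SE 0.21, limma adjusted p = 0.0128), but not in transgenic minus IL4R KO (-0.28, limma adjusted p = 0.62). Its calls, like those of Dnah8, were lost without either WT array (limma adjusted p = 0.158 and 0.194 against IL4R KO, 0.128 and 0.144 against transgenic), and that against transgenic also without transgenic pool 1 (0.0876). Without both liver-marked arrays WT minus IL4R KO was 1.36 and did not pass (limma adjusted p = 0.0846), and transgenic minus WT was -1.89 and passed (limma adjusted p = 0.0342). Its other 2 probe sets differed the same way between WT and IL4R KO (0.25 and 0.72) without passing.

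Next to it, Glo1, the glyoxalase that clears methylglyoxal, was read by 4 probe sets. The group means of all 4 ran in the order of Dnah8, WT above IL4R KO above transgenic, with WT minus IL4R KO between 0.23 and 0.39 and transgenic minus WT between -0.63 and -0.47, and none passed (lowest limma adjusted p 0.11). Probe set 1424109_a_at, for example, read 11.42 and 11.68 in the WT pools, 11.29 and 11.33 in the IL4R KO pools and 10.90 and 11.12 in the transgenic pools, with no overlap of groups. No probe set of Btbd9, Glp1r, Umodl1 or Abcg1 passed. Glp1r, next to Dnah8 on its other side in this order, differed by 0.019 at most. Umodl1 and 1 of 3 Btbd9 probe sets had the order of Dnah8 at transgenic minus WT of -0.087, whereas the other 2 of Btbd9 and both of Abcg1 had their lowest mean in WT. Whether the colonies differ in DNA sequence or copy number around Dnah8 was not tested.

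**Figure D3:**
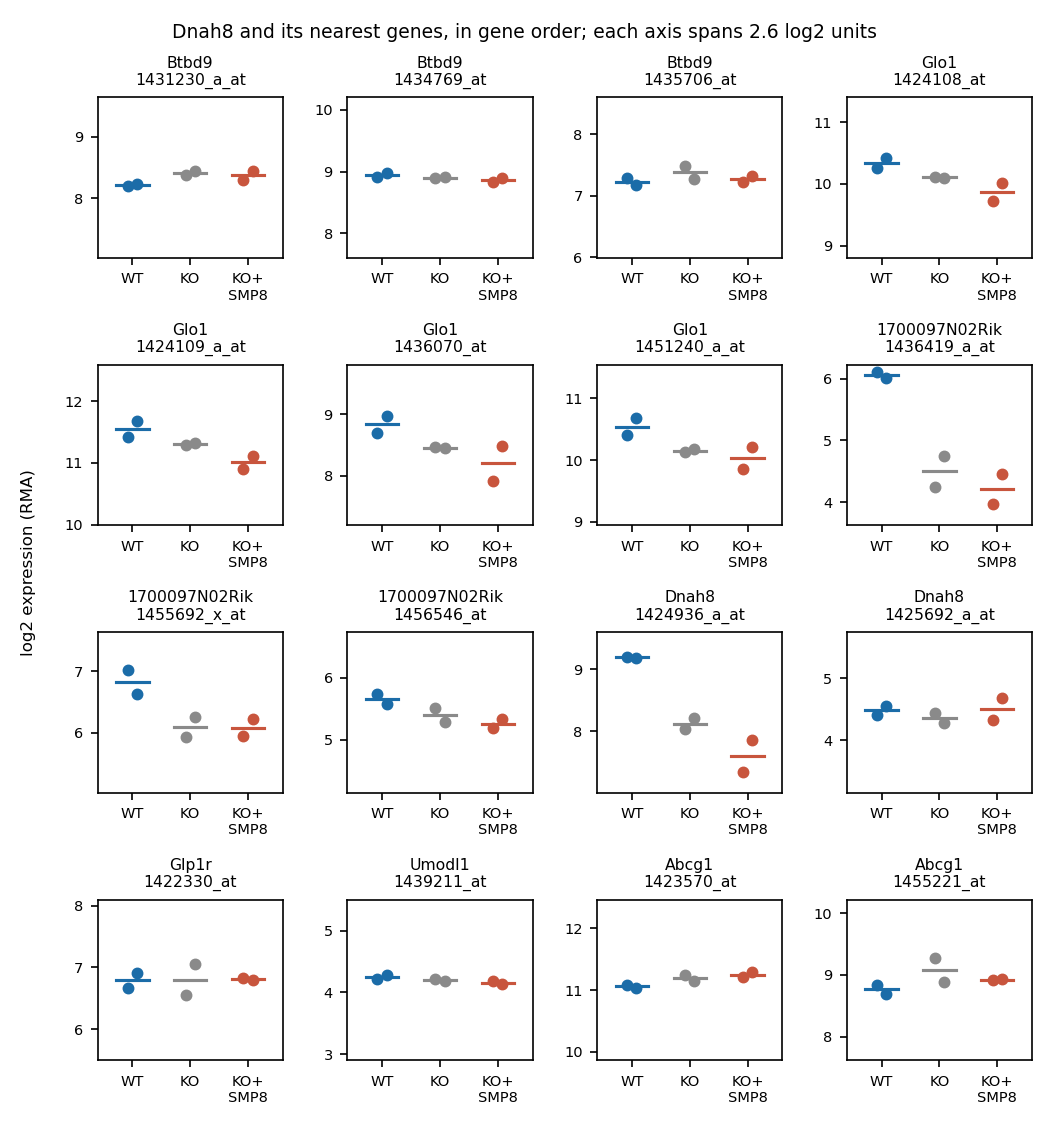
Log2 expression of the probe sets of Dnah8 and its nearest genes with a probe set of their own, in gene order. A point marks each pool and a bar each group mean, each axis spanning 2.6 log2 units. WT pools lie highest for Dnah8 1424936_a_at, the 3 probe sets of 1700097N02Rik and the 4 of Glo1, by differences that passed for Dnah8 and 1436419_a_at of 1700097N02Rik alone.

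The other heavy chains lay within 0.35 of each other between genotypes, and none passed. Dnah9, an outer arm heavy chain of airway cilia, read 9.04 and 8.79 in the WT pools, 8.71 and 8.73 in the IL4R KO pools and 8.50 and 8.64 in the transgenic pools with 1457401_at. Its groups did not overlap, but transgenic minus WT was -0.35 (SE 0.10, limma adjusted p = 0.208). The dimmer Dnah9 probe set, 1442412_at, read 5.06 and 4.95 in WT, 4.74 in both IL4R KO pools and 4.75 and 4.76 in transgenic lungs, with WT alone apart (WT minus IL4R KO 0.27, limma adjusted p = 0.164).

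Dnah12, an inner arm heavy chain, read 7.94 and 7.87 in the WT pools, 7.38 and 7.72 in the IL4R KO pools and 7.66 and 7.60 in the transgenic pools. Both WT pools were above all others, and the IL4R KO pools lay on either side of the transgenic pair (WT minus IL4R KO 0.35, SE 0.12, limma adjusted p = 0.228). Without IL4R KO pool 2 that difference was 0.52 and passed (limma adjusted p = 0.0383). Dnah6, also of the inner arms, read 9.33 and 9.21, 9.05 and 9.29, and 8.90 and 9.10 in the same order of groups, and Dnah5, whose loss stops outer arm assembly, 7.36 and 7.54, 7.24 and 7.35, and 7.15 and 7.28. Both had transgenic pools below WT pools (transgenic minus WT -0.27 and -0.24), and neither passed. Over the class, 10 of 14 probe sets had both transgenic pools below both WT pools (27.2% of all probe sets did, a share that also stands beside the class counts that follow), the median of transgenic minus WT was -0.23 and that of WT minus IL4R KO 0.14. Dnah7a belongs to a family of near copies, and its values, 5.51 to 5.75, may mix them.

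Intermediate and light intermediate chains, which tether the heavy chains to the doublet, were read by 6 probe sets of 3 genes. The medians were 0.033 for WT minus IL4R KO, -0.2 for transgenic minus IL4R KO and -0.22 for transgenic minus WT, and 5 of 6 had transgenic pools below WT pools. Dnaic2 read 6.82 and 6.75 in the WT pools, 6.66 and 6.72 in the IL4R KO pools and 6.51 and 6.54 in the transgenic pools with 1445408_at. These groups stood in 3 separate steps, yet transgenic minus WT of -0.26 did not pass (SE 0.074, limma adjusted p = 0.195). The brighter 1436296_x_at of the same gene read 9.31 and 9.27, 9.01 and 9.26, and 8.93 and 9.24, with IL4R KO and transgenic pools overlapping. Dnaic1, its partner in the outer arm, had 8.15 and 8.05, 7.89 and 8.24, and 7.83 and 7.91 with 1437094_x_at, so that IL4R KO pool 2 was highest. Dnali1, the light intermediate chain of inner arms, behaved alike with 9.57 and 9.45 in the WT pools, 9.31 and 9.70 in the IL4R KO pools and 9.15 and 9.45 in the transgenic pools (1455379_at).

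Tektins form filaments along the doublets, and 5 probe sets read 1 gene each. None passed. Tekt1 read 8.27 and 7.94 in the WT pools, 7.98 and 8.32 in the IL4R KO pools and 7.60 and 8.03 in the transgenic pools, with every group overlapping another. Tekt4 read 8.36 and 8.43, 8.35 and 8.60, and 8.09 and 8.24, so that both transgenic pools were the lowest (transgenic minus IL4R KO -0.31, SE 0.11, limma adjusted p = 0.382). Tekt2 read 7.47 and 7.39 in the WT pools, 7.51 and 7.93 in the IL4R KO pools and 7.46 and 7.45 in the transgenic pools. IL4R KO pool 2 alone stood high for Tekt2, and with pool 1 left out WT minus IL4R KO went from -0.29 to -0.50 and passed (limma adjusted p = 0.0465). All 5 tektins were higher in IL4R KO pool 2 than in pool 1. Their median was -0.039 for transgenic minus WT and -0.26 for transgenic minus IL4R KO. Both transgenic pools lay below both WT pools for 1 of the 5 tektins and above them for 1.

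Radial spoke and ropporin genes gave 10 probe sets of 8 genes, none passing, and 4 of the 10 had transgenic pools below WT pools. Rsph14, a spoke protein, read 7.45 and 7.49 in the WT pools, 7.17 and 7.34 in the IL4R KO pools and 7.13 and 7.05 in the transgenic pools. The groups did not overlap, and its transgenic minus WT of -0.38 (SE 0.086) had the lowest adjusted p of the members after Dnah8 (limma, 0.127). Ropn1l, a ropporin-like protein of spokes and sperm tail, read 7.14 and 7.18, 7.23 and 7.24, and 6.93 and 7.00 with 1423959_at. Transgenic pools were lowest here too (transgenic minus IL4R KO -0.27, SE 0.073, limma adjusted p = 0.332), whereas the dimmer 1457627_x_at gave -0.017, -0.0032 and 0.014 in the 3 comparisons. Rsph1 of the spoke head read 9.31 and 9.14, 9.06 and 9.27, and 8.85 and 9.01. Its partner Rsph9 read 9.07 and 9.05, 9.08 and 9.39, and 8.92 and 9.07, with IL4R KO pool 2 highest. The stalk protein gene Rsph3a ran the other way, 8.28 and 8.35 in the WT pools, 8.46 and 8.71 in the IL4R KO pools and 8.41 and 8.51 in the transgenic pools (1432579_at). WT was lowest for it, by -0.27 against IL4R KO (limma adjusted p = 0.275), and its near copy Rsph3b may share the signal.

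**Figure D4:**
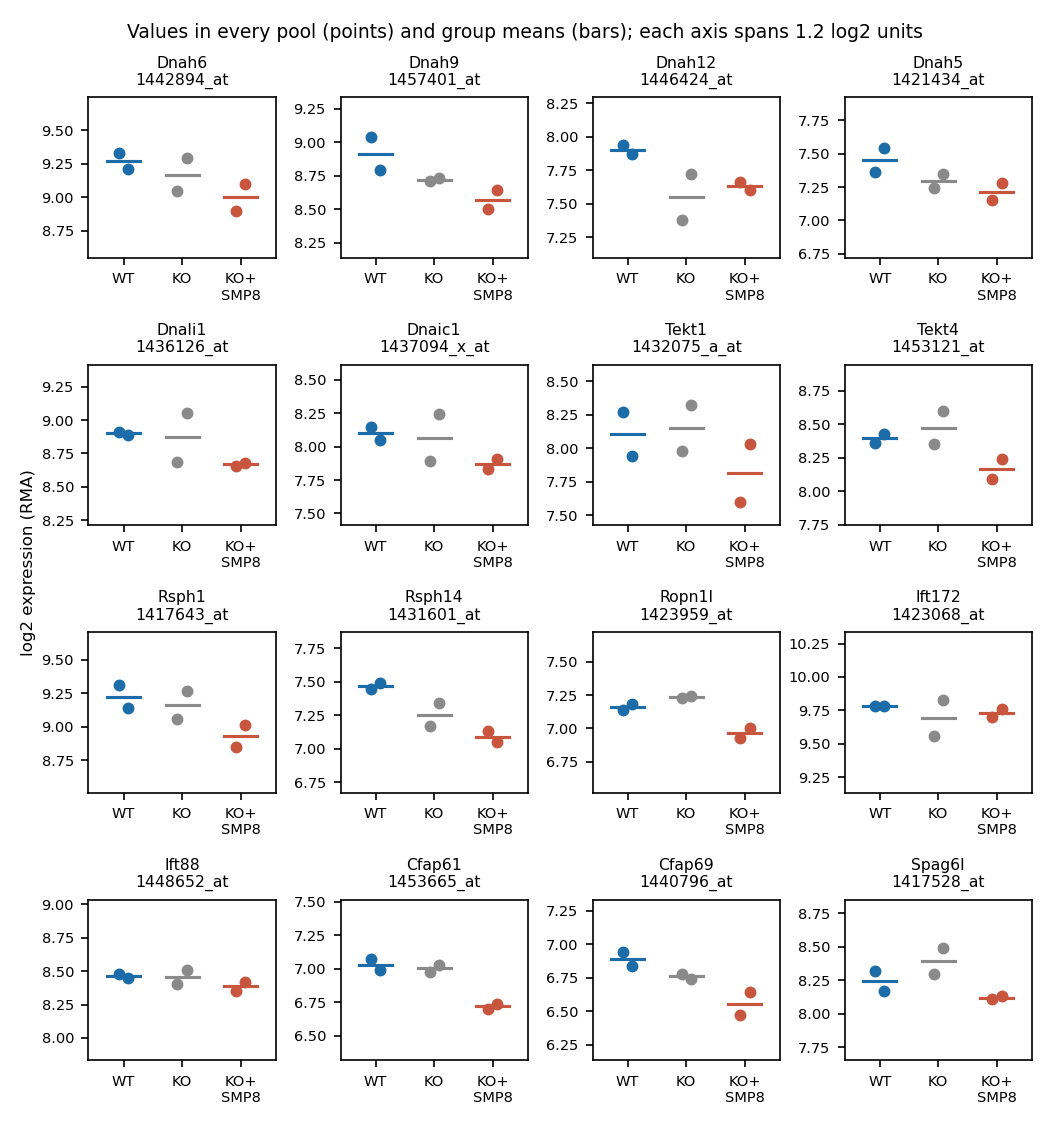
Log2 expression of 16 member genes from all classes, each by its probe set of lowest p in transgenic against WT, with a point for each of the 2 pools and a bar for the mean of each genotype, each axis spanning 1.2 log2 units. Both transgenic pools lie below both WT pools for every gene drawn but Tekt1. The genes were picked by hand and their probe sets by p in this comparison, and both choices can favour that. Genes with a probe set that went the other way, such as Rsph3a, Ift122 and Tekt5, are not drawn. The share among all members was 51.6%, and 48 of the 79 genes had such a probe set. For Dnali1, Dnaic1 and Ift172 the IL4R KO pools alone span most of the range.

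Transport genes differed little between genotypes, and none passed. The 25 IFT probe sets of 15 genes had medians of 0.0019, -0.024 and -0.05 for WT minus IL4R KO, transgenic minus IL4R KO and transgenic minus WT, and their differences all lay between -0.25 and 0.21. Ift172, a large subunit of the anterograde complex, read 9.78 in both WT pools, 9.56 and 9.83 in the IL4R KO pools and 9.70 and 9.76 in the transgenic pools. Ift46 of the same complex read 10.12 and 10.08, 10.07 and 10.21, and 10.01 and 9.97. Ift43, part of the retrograde complex, read between 10.29 and 10.36 on all 6 arrays. The gap between the IL4R KO pools was the widest of the gaps for Ift172, and 23 of 25 IFT probe sets were higher in IL4R KO pool 2 than in pool 1. Both transgenic pools lay below both WT pools for 11 of the 25.

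Cfap genes encode a mixed set of doublet, spoke and central pair proteins, with 44 probe sets of 25 genes and none passing. Their medians were 0.023, -0.13 and -0.12, and 23 had transgenic pools below WT pools. Cfap61, part of a calmodulin-binding complex at the spokes, read 7.07 and 6.99 in the WT pools, 6.98 and 7.03 in the IL4R KO pools and 6.70 and 6.74 in the transgenic pools with 1453665_at. Both transgenic pools were below the other 4, which overlapped. Transgenic minus WT was -0.31 (SE 0.075, limma adjusted p = 0.145) and transgenic minus IL4R KO -0.28 (limma adjusted p = 0.332). Its other 2 probe sets gave -0.32 and -0.064 for transgenic minus WT.

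Cfap69, a central pair protein, was lower in transgenic than in WT lungs with all 3 probe sets, by group means, at -0.36, -0.34 and -0.28. Probe set 1457697_at read 6.83 and 6.88 in the WT pools, 6.95 and 6.69 in the IL4R KO pools and 6.55 and 6.44 in the transgenic pools, and 1440796_at read 6.94 and 6.84, 6.78 and 6.74, and 6.47 and 6.64. The transgenic pools were lowest with both (limma adjusted p = 0.193 and 0.168). With 1455859_at, WT pool 1 at 8.92 stood above WT pool 2 at 8.49 and the other arrays at 8.32 to 8.44 (WT minus IL4R KO 0.33, limma adjusted p = 0.311).

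Other Cfap genes differed little or in the opposite direction. Cfap126, which helps place basal bodies, read 10.45 and 10.42 in the WT pools, 10.34 and 10.74 in the IL4R KO pools and 10.41 and 10.43 in the transgenic pools. Cfap20, a protein of the doublet's inner junction, read 10.10 and 10.16, 9.97 and 10.23, and 10.09 and 10.11 with 1419462_s_at, and Cfap97 9.76 and 9.74, 9.56 and 9.78, and 9.73 and 9.71 with 1429155_at. In all of these the widest gap was that between the IL4R KO pools. Cfap410, a protein of the ciliary base, was lowest in WT with 1 of its 2 probe sets, at 7.81 and 7.87 against 8.04 and 8.15 in the IL4R KO pools and 7.95 and 7.88 in the transgenic pools, with 1451288_s_at (WT minus IL4R KO -0.25, limma adjusted p = 0.2). Its other probe set, 1424267_at, went with the lean, at 7.73 and 7.74 in the WT pools and 7.55 and 7.58 in the transgenic pools (transgenic minus WT -0.17, limma adjusted p = 0.426). Cfap54 of the central pair gave -0.33 for WT minus IL4R KO with the dim 1440502_at (limma adjusted p = 0.209) and 0.17 with the brighter 1444517_at. Its probe sets thus disagreed in sign.

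Spag and Spef genes, named from sperm, gave 24 probe sets of 13 genes, and none passed. Of the 24, 12 had transgenic pools below WT pools. Several act in the central pair. Spag16, one of them, was lower in transgenic than in WT pools with all 4 probe sets, without overlap, by -0.26, -0.24, -0.18 and -0.17. Spag6l, which has the near copy Spag6, read 8.32 and 8.17 in the WT pools, 8.30 and 8.49 in the IL4R KO pools and 8.11 and 8.13 in the transgenic pools, and its transgenic pools were lowest (transgenic minus IL4R KO -0.27, limma adjusted p = 0.382). Spef1, a microtubule bundler of the central pair, read 9.72 and 9.71, 9.77 and 9.74, and 9.61 and 9.79 with 1424817_at. Both IL4R KO pools were just above both WT pools, and the transgenic pools lay on either side of all of these. Spag7, of less certain function, read 9.82 and 9.75, 9.81 and 9.87, and 9.70 and 9.73.

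Of the members named at the outset as acting outside the axoneme, Spag9 did not share the lean and Spag5 did in part. Spag9 read 11.85 and 11.67 in the WT pools, 11.99 and 11.62 in the IL4R KO pools and 11.96 and 12.02 in the transgenic pools (1433648_at), and all 3 of its probe sets had transgenic means above WT means, by 0.17 to 0.23. Spag5 was higher in WT than in IL4R KO with all 3 probe sets (0.28, 0.29 and 0.33), without overlap, although none passed. Its probe sets differed over the transgenic lungs, with transgenic minus WT at -0.40 (1433892_at) and -0.20 (1427498_a_at), both without overlap, and 0.0089 (1433893_s_at). Probe set 1433892_at read 5.30 and 5.32 in the WT pools, 5.11 and 4.93 in the IL4R KO pools and 5.11 and 4.71 in the transgenic pools, and 1433893_s_at 5.51 and 5.39, 5.34 and 4.91, and 5.51 and 5.42. All of these lie near the lower quartile of all values. A list of 12 mitosis genes ran with Spag5, with a median of 0.46 for WT minus IL4R KO, 19 of 21 probe sets higher without overlap (23.7% of all probe sets were) and none passing. Their mean array levels were 6.95 and 6.84 in the WT pools, 6.56 and 6.29 in the IL4R KO pools and 6.93 and 6.63 in the transgenic pools.

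Lists of other cilia genes, drawn up by function, were read the same way. Of 18 regulators of the ciliary programme, 15 had a probe set, and of their 28 probe sets none passed; the median of transgenic minus WT was -0.04. Foxj1, the forkhead factor that switches the programme on, read 10.00 and 9.98 in the WT pools, 10.12 and 9.96 in the IL4R KO pools and 9.71 and 9.99 in the transgenic pools. Its groups overlapped, and transgenic pool 1 was lowest as it was for the members. Lowest in p were Cdc20b (transgenic minus IL4R KO -0.40, limma adjusted p = 0.302) and Trp73, which encodes p73 (-0.37, limma adjusted p = 0.336). Cdc20b was dim, at 4.26 to 4.77, and the other Trp73 probe set, 1452325_at, gave -0.053. Proteins that assemble and dock dynein arms (22 listed, 17 with 28 probe sets) had no passing gene and a median of -0.073. The lowest p there belonged to Wdr92 with 1447230_at (transgenic minus WT -0.39, limma adjusted p = 0.107) and Dnaaf1 with 1450441_at (-0.44, limma adjusted p = 0.182). That Wdr92 probe set was dim, at 3.20 to 3.68, and the brighter 1454922_at and 1458355_x_at gave 0.0016 and 0.29. The dimmer Dnaaf1 probe set, 1421974_at, gave -0.016.

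No dynein light chain passed (14 listed, 11 with 21 probe sets, median -0.072). Dynlt3, a light chain of cytoplasmic dynein, had 4 probe sets that were higher in WT than in IL4R KO by 0.30 to 0.37 without overlap (lowest limma adjusted p 0.0783), and Dynll2 gave 0.25 for transgenic minus WT (limma adjusted p = 0.23). The nexin-dynein regulatory complex and its ruler proteins (14 listed, 10 with 14 probe sets) had a median of -0.1 and none passing. Lowest in p were Ccdc39 with 1440504_at (WT minus IL4R KO -0.26, limma adjusted p = 0.159) and Tcte1 (transgenic minus WT -0.39, limma adjusted p = 0.229). That Ccdc39 probe set was dim, at 3.64 to 3.92, and the brighter 1429780_at and 1429781_s_at gave -0.011 and -0.031. Other IFT and BBSome genes (34 listed, 31 with 53 probe sets) had a median of -0.036 and none passing, with Mkks, which helps fold the BBSome, at 0.27 and 0.30 (limma adjusted p = 0.159 and 0.172) in WT minus IL4R KO and Bbs9 at -0.30 in transgenic minus IL4R KO (limma adjusted p = 0.344).

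Central pair and other axoneme genes (44 listed, 30 with 42 probe sets) had a median of -0.17 for transgenic minus WT with 24 probe sets lower without overlap (27.2% of all probe sets were) and 0 higher (27.4%). Only Nme7 passed among them. Nme7, a kinase-family protein inside the doublets and at the centrosome, read 9.44 and 9.45 in the WT pools, 8.83 and 8.92 in the IL4R KO pools and 8.84 and 8.83 in the transgenic pools. WT stood alone, while IL4R KO and transgenic pools overlapped. Nme7 was higher in WT than in IL4R KO by 0.57 (SE 0.074, limma adjusted p = 0.0197) and lower in transgenic than in WT lungs (-0.61, SE 0.074, limma adjusted p = 0.0178). Transgenic minus IL4R KO was -0.041. Without both liver-marked arrays neither difference passed (0.52, limma adjusted p = 0.0941, and -0.61, limma adjusted p = 0.0613). The WT minus IL4R KO call was also lost without either WT or either transgenic array (limma adjusted p 0.0691 to 0.187), and the transgenic minus WT call without any of the same 4 (0.159 to 0.185). Its other probe set, 1438874_at, was dim at 3.13 to 3.51 and did not pass. After Nme7 came Wdr78, with -0.45 for transgenic minus IL4R KO (limma adjusted p = 0.272), at values of 3.40 to 4.01 where the lowest value of all was 2.63.

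Markers of other epithelial cells of the lung were read beside the cilia genes. Of all probe sets, 23.7% were higher and 22.1% lower in WT than in IL4R KO without overlap. In transgenic against WT these shares were 27.4% higher and 27.2% lower. All 16 probe sets of mucous cell genes were higher in WT than in IL4R KO without overlap, 15 of them passing the test, and all 16 were lower in transgenic than in WT and passed, with medians of 2.14 and -2.41. Of 18 basal cell probe sets, of which 1 lay above the median of all values, 10 were higher in WT than in IL4R KO without overlap. Among these 18, 1 passed, of Trp63. Transgenic minus WT had 12 of the 18 lower without overlap and 4 passing, of Aqp3 and Trp63, and mean array levels were 5.53 and 5.61 in the WT pools, 5.43 and 5.48 in the IL4R KO pools and 5.26 and 5.32 in the transgenic pools. Club cell genes kept mean levels of 11.78 to 12.02 on all arrays. Of their 14 probe sets, 5 were higher (2 passing) and 6 lower (1 passing) in WT than in IL4R KO without overlap, and 7 were lower (2 passing) and 5 higher (none passing) in transgenic than in WT. Of 15 general epithelial probe sets, 1 passed, higher in WT than in IL4R KO, and mean levels reached at most 11.16. Of 20 alveolar type 2 probe sets, 9 were lower in WT than in IL4R KO without overlap (3 passing), and 11 higher in transgenic than in WT (2 passing). No alveolar type 1 probe set of 15 passed. Without both liver-marked arrays 15 mucous probe sets still passed in each of these comparisons, with 1 club probe set higher in WT than in IL4R KO and 2 lower in transgenic than in WT, and 0 basal, general epithelial or alveolar probe sets passed in that limma fit. On all 6 arrays, transgenic minus IL4R KO lay below 0 for 14 of 15 general epithelial, 16 of 18 basal and 11 of 14 club probe sets. Their medians were -0.12, -0.13 and -0.046, against -0.085 for the members. Alveolar type 2 and type 1 medians were -0.024 and -0.0033. A low lean in transgenic lungs was thus not particular to the cilia genes. What these shifts contribute to the values of the members was not tested.

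Tissues beside the lung that also carry cilia genes or can come along in dissection were checked by their markers. Male germ cell genes, which share the sperm tail names of many members, had mean levels of 5.01 to 5.14, with 2 of 24 probe sets above the median of all values and none passing. They too leaned low in transgenic lungs, with 19 of 24 below 0 against WT (median -0.071) and 18 against IL4R KO (-0.12). The members had medians of -0.11 and -0.085. Without overlap, 9 of the 24 were lower and 1 higher in transgenic than in WT (27.2% and 27.4% of all probe sets were). Of tracheal cartilage and thyroid genes, 0 of 10 probe sets lay above that median. No hepatocyte, mitosis, Y-linked or Xist probe set passed. Without both liver-marked arrays WT minus IL4R KO had 2 hepatocyte and 1 cartilage or thyroid probe set passing lower and 1 of mitosis passing higher, and 5 of 12 Y-linked and Xist probe sets passed higher and 2 lower.

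Promoters were searched because RFX factors and Foxj1 are the known activators of ciliary genes, through the X-box and a forkhead site. RefSeq (GRCm38.p6) promoters were matched for 67 of the 79 genes, and the 250 bases before the start were read on both strands. The X-box form searched, GTTNCC, then any 3 bases, then GNAAC, where N is any base, was in 4 of 67 (5.97%) and in 0.784% of 27025 genes. The forkhead form TGTTTAC was in 4 of 67 (5.97%: Cfap20, Cfap43, Dnah17 and Tekt3) and in 3.54% of all genes. The X-box genes, shown because this is the site of the RFX factors, are Cfap20dc, Cfap298, Cfap45 and Spag16, each on its own strand, 5′ to 3′, with the match in capitals. The match lies on the gene's strand in 3 of them, and in Cfap20dc and Cfap298 the same letters also fit on the opposite strand. In Cfap45 it lies on the opposite strand alone, so that its capitals show the reverse complement of the searched form.
Cfap20dc (chr14:8666291-8666540, minus strand): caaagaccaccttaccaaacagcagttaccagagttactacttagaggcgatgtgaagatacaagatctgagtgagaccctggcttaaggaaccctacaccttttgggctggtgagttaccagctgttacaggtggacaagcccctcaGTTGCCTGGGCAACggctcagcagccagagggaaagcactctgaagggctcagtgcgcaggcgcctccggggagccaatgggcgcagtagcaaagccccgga
Cfap298 (chr16:90934850-90935099, minus strand): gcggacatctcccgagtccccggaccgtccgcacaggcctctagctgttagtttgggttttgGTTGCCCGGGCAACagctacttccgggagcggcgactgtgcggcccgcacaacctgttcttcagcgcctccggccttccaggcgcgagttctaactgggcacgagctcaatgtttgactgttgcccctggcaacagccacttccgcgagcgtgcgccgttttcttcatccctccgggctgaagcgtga
Cfap45 (chr1:172520880-172521129, plus strand): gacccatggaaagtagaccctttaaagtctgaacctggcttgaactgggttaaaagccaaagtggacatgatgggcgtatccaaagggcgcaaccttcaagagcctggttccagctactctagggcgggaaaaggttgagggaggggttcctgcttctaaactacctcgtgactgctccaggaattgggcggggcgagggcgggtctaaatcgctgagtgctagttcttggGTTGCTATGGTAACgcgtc
Spag16 (chr1:69826720-69826969, plus strand): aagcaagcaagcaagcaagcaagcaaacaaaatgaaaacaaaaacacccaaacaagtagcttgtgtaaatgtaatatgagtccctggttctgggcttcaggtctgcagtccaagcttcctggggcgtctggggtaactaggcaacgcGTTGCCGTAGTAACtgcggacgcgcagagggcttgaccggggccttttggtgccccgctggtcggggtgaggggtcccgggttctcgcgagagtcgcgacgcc
The match begins 102, 188, 19 and 103 bases before the start in these genes. Both transgenic pools were below both WT pools with 4 of 4 Spag16 probe sets, 3 of 4 of Cfap298, the 1 of Cfap45 and 0 of 3 of Cfap20dc. The same held for 51.6% of all members and 27.2% of all probe sets. Cfap45 read 7.75 and 7.42 in the WT pools, 7.51 and 7.68 in the IL4R KO pools and 7.26 and 7.36 in the transgenic pools. A match is a description of these letters and was not tied to the values by any test.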

How the data were processed

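RNA of whole mouse lungs was hybridised to 6 Affymetrix arrays, 2 pools of 4 mice for each of 3 genotypes, with groups and pool numbers taken from the labels. The authors deposited log2 values made by RMA, a background correction, quantile normalization and summary over each set's probes, per the submitters' processing notes (version not given in the sources used here). RMA compresses dim signals, so folds of dim probe sets are understated. The 64 array controls among 45101 probe sets were dropped. By the platform annotation, 34945 of the rest name 1 gene, 932 name several and 9160 are unnamed here. No probe set was filtered.

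The genotypes were compared by limma 3.58.1 under R 4.3.3 (lmFit and eBayes without intensity trend, 1 mean per group, 3 residual and 3.72 prior degrees of freedom), with Benjamini-Hochberg adjustment over all 45037 probe sets. A probe set passed at an adjusted p under 0.05. The p-values rest on the spread between pools, of which 2 per group limit the precision. Lists were described by counts and medians, with no test over a list. The members and lists were chosen with earlier results of these data known. Named were members that passed, the 5 genes of lowest p and the 5 probe sets of largest difference in each comparison, the 3 genes of highest mean in each class and, of the other pathway lists, passing genes and the 2 of lowest p. Dnah5, Spag16, Spag6l, Cfap45, Dnah7a and the genes beside Dnah8 were named beside these after their values were seen. Fold values are 2 to the power of the log2 difference.

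Pool numbers did not pair the samples: deviations of like-numbered pools correlated at -0.346 (WT and IL4R KO), -0.0668 (WT and transgenic) and 0.0526 (IL4R KO and transgenic). Alternatives covered filters on dim probe sets, 1 probe set per gene, an intensity trend with robust variances, centring, the replicate block, each array left out, and both liver-marked arrays left out. The crossed replicate block, and the alternatives for genes and lists that are no members, were added after seeing the data. Promoters came from RefSeq, matched by gene ID. The arrays come with no stated genome build, so gene positions were used for order alone.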

Additional observations from a re-analysis of the deposited data

How the results depend on the processing

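Of 79 differences of named members, 994 alternatives left 985 on the same side of the threshold, 7 weaker (all of Dnah8) and 2 stronger (Dnah12 and Tekt2), and 0 reversed among called values. With 1 array left out, members passing ranged from 0 to 2 in WT against IL4R KO (Dnah12 and Dnah8 without IL4R KO pool 2, Tekt2 alone without IL4R KO pool 1, none without either WT pool) and from 0 to 1 in transgenic against WT (none without either WT pool). The median ranged from -0.047 to 0.11 in WT minus IL4R KO and from -0.17 to -0.015 in transgenic minus IL4R KO. Without both liver-marked arrays 0 members passed in WT against IL4R KO and 0 in transgenic against WT, and the median of transgenic minus IL4R KO was -0.17. Such fits assume that a lone array varies like the others. With the replicate block 1, 0 and 1 members passed (WT against IL4R KO, transgenic against IL4R KO, transgenic against WT), out of 610, 16 and 397 probe sets, and with the crossed pairing 1, 0 and 1 out of 435, 0 and 343. Over all probe sets the 710, 7 and 470 passing became 1075, 31 and 732 with an intensity trend and robust variances. Restricting to probe sets with a mean above the median gave 12 in transgenic against IL4R KO, 1 probe set per gene 12, and leaving out both liver-marked arrays 13. Leaving out 1 array gave 127 to 1401, 0 to 96 and 102 to 1064. No other setting changed which members passed. With 2 arrays per group, differences of the size seen for most members were not resolved, and 54 of 128 members lay at or below the median signal.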
